A study of Mus musculus with 24 samples.

Results

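The tumour effect common to both genotypes was measured in bulk RNA of mouse liver, over all 24 libraries of the study. In 12 of them the liver bore cholangiocarcinoma, the cancer of bile ducts, after a transposon had integrated AKT and YAP1 into liver cells. The other 12 came from livers without tumour, whose mice had been given an empty construct. Both conditions were present in wild-type animals and in the Mdr2-/- line, whose Abcb4 (Mdr2) transporter no longer carries phospholipid into bile, which made 4 groups of 6 libraries. The labels give neither age nor sex, and name no promoter for the delivered genes. Whether every library was taken from its own animal is not stated, and the p-values therefore reflect only how far these samples varied.

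The tumour term is the log2 fold change (± SE) of tumour-bearing against control livers in an additive model, ~ genotype + tumour, fitted to the counts of 17216 genes of the 49315 in the table with edgeR's quasi-likelihood test. A gene was called when its p, adjusted by Benjamini-Hochberg over all genes tested, was under 0.05. The effect in each genotype and the difference between these effects came from a second model with a mean per group. Genes called for the tumour term and at least 2-fold higher, or at least 2-fold lower, in each genotype are the common set. Expression levels are given as CPM (TMM-scaled counts per 1000000) without correction for gene length.

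AKT is a kinase at the centre of insulin and growth factor signalling, and YAP1 is a transcriptional coactivator that the kinases of the Hippo pathway keep out of the nucleus. YAP1 binds DNA through TEAD factors, and its best known targets include Ankrd1 and Ctgf. Hepatocytes make plasma proteins, bile acids, urea and drug-metabolising enzymes, whereas bile duct cells line the ducts and modify bile. In bulk tissue, fewer cells of a type and less RNA per cell cannot be told apart.

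Promoters of a few genes of the results below are shown because YAP1 acts through TEAD, and because AP-1 often binds beside TEAD. The windows run from 250 bases before to 50 bases after the RefSeq start of the gene in build GRCm38.p6, which is not the build of the counts (mm39). They are written 5′ to 3′ on the strand of the gene, with the matched letters in capitals. The searched motifs were GGAATG for TEAD, TGANTCA for AP-1 and CAAAGTCCA for HNF4A, each on both strands, with no overlap between motifs in the windows printed. Ankrd1, a classic YAP1 target that rose in both genotypes, had a TEAD match at positions -210 and -123 from the start, in chr19:36119795-36120094 on the minus strand. Pla2g5 and Sdcbp2 were among the largest common rises. A TEAD match lay at -33 in the second RefSeq start of Pla2g5, in chr4:138819208-138819507 on the minus strand, and another at -194 in the first. Sdcbp2 had an AP-1 match at -44, in chr2:151572373-151572672 on the plus strand. Serpina1b, which fell in both genotypes, had an AP-1 match at -240 in chr12:103738140-103738439, and its close copy Serpina1a had one at -233 in chr12:103863570-103863869, both on the minus strand. Every window printed holds a match, which many windows of the genes named below did not. No match lay in those of the common rises Slco1a6, Prss35, Ang5, Spp1, Ptgfr and Gpc3, or of the common falls Ces2a and Abcb11. Fga, which fell, Wwtr1, which rose, and Yap1 each had a TEAD match and are not printed.
Ankrd1: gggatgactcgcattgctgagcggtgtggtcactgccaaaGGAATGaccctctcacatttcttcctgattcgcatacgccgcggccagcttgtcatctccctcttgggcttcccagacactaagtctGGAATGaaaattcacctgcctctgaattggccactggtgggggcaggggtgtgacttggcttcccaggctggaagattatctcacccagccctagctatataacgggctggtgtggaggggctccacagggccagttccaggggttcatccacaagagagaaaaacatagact
Pla2g5, second start: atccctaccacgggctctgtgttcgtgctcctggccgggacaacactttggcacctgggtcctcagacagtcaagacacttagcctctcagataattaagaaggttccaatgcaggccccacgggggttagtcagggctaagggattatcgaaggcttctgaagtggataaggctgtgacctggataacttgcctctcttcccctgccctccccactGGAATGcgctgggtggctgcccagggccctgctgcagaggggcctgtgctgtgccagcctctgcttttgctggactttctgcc
Sdcbp2: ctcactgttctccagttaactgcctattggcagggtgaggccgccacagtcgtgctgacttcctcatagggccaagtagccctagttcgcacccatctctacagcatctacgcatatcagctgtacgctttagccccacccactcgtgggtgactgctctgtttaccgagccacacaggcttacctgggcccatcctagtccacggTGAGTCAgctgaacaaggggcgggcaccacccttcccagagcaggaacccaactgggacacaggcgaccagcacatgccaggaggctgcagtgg
Serpina1b: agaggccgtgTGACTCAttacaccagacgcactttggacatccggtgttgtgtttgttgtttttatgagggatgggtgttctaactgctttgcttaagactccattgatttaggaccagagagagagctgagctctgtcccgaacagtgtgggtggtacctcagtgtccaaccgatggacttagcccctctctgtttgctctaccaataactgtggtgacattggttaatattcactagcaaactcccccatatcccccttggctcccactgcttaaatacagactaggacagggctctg
Serpina1a: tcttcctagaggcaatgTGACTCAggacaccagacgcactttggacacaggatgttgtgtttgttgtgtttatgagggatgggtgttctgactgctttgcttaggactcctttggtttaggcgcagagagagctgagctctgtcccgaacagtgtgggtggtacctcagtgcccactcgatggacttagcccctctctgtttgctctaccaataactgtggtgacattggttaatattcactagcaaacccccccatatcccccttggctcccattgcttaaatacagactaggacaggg

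A TEAD match was found in 16.8% of the 446 common genes that rose and had a window, in 24.2% of the 33 that fell and in 15.0% of the 12226 tested genes with a window. The corresponding shares for AP-1 were 9.87%, 18.2% and 6.90%. HNF4A matches were found in 0.448%, 0% and 0.663%. These shares describe letters in a window and were not tested.

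Abcb4 was low in every Mdr2-/- library. It was at 244 to 377 CPM (median 274) in wild-type controls and 165 to 361 CPM (median 215) in wild-type tumour-bearing livers, and at 23.8 to 41.6 CPM (median 31.3) in Mdr2-/- controls and 21.7 to 59.3 CPM (median 25.9) in Mdr2-/- tumour-bearing livers. The genotypes did not overlap, and the tumour term was -0.18 ± 0.15 (edgeR adjusted p = 0.401). Akt1, the mouse counterpart of one delivered gene, was at 21.2 to 47.5 CPM (median 34.8) in wild-type controls and 58.5 to 162 CPM (median 86.0) in wild-type tumour-bearing livers. Akt1 in Mdr2-/- mice was at 49.0 to 64.4 CPM (median 52.2) in Mdr2-/- controls and 44.9 to 134 CPM (median 116) in Mdr2-/- tumour-bearing livers. The wild-type groups did not overlap, the Mdr2-/- groups did, and the tumour term was 1.20 ± 0.19 (edgeR adjusted p = 4.13e-05). Yap1, the counterpart of the other delivered gene, was at 48.6 to 78.4 CPM (median 52.9) in wild-type controls and 40.2 to 77.5 CPM (median 48.0) in wild-type tumour-bearing livers. Yap1 in Mdr2-/- mice was at 59.1 to 86.3 CPM (median 72.4) in Mdr2-/- controls and 40.7 to 58.6 CPM (median 52.5) in Mdr2-/- tumour-bearing livers, with every tumour-bearing library below every control. Its tumour term of -0.31 ± 0.11 (edgeR adjusted p = 0.0396) was called in only 21 of 39 alternative settings. It was lost with total library size, upper-quartile factors, no filter, TPM and the share of nuclear RNAs given below as a covariate, in the test against 1.5-fold, and in 11 of the fits without 1 library. Which species the delivered AKT and YAP1 came from is not labelled, and the share of their reads that fell on these mouse genes is unknown.

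Of the genes tested, 28.7% were called for the tumour term. They were 2857 higher (16.6%) and 2079 lower (12.1%). The share of calls that were higher was 57.9%, against 92.1% with total library size and 90.1% on the authors' TPM with a pseudocount of 1. With total library size 6498 genes were called higher and 557 lower, and on that TPM 5058 and 554. Counts of list members in these settings, given below, have these numbers as their base. Total library size moved the median tumour term of all genes by 0.270, and TPM by 0.109, from 0.03 with TMM. The common set held 620 genes that rose (3.60% of the genes tested) and 40 that fell (0.232%). Of these, 507 and 33 were also called in each genotype alone. Both the size and the direction of the change in each genotype chose these genes, so their agreement between genotypes is a description. Their median effect was 1.86 in wild type and 1.78 in Mdr2-/- for the 620, and -1.26 and -1.24 for the 40. In 5 of the 620 the controls of a genotype held no count, and with these at their lower bound of 3 counts per group the medians were again 1.86 and 1.78.

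Control levels of the 2 sets differed, which the choice of the genes in part fixes: a gene low in controls can be tested if it rises but hardly if it falls. The median control level was 0.519 CPM for the 620 and 73.4 CPM for the 40, against 8.65 CPM for all genes tested. Among the 620, 354 (57.1%) were below 1 CPM in both control groups, and 265 had a tumour term of 4-fold or more, against 2 of the 40. At the 2-fold limit, Zfp808 (1.13 in wild type and 1.0 in Mdr2-/-) was just inside and Sult2a7 (1.60 and 0.998) just outside. On the falling side Abcb11 (-1.36 and -1.02) was just inside, and Ass1 (-0.998 and -1.17) just outside. The difference between the effects was called for 68 of the 620, in 40 of them with the larger rise in wild type, and for 1 of the 40. Over all genes tested it was called for 4355 (25.3%). The common set was chosen for changes the same way in each genotype. That choice in part fixes how often the difference is called in it, so these counts are a description.

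**Figure D1:**
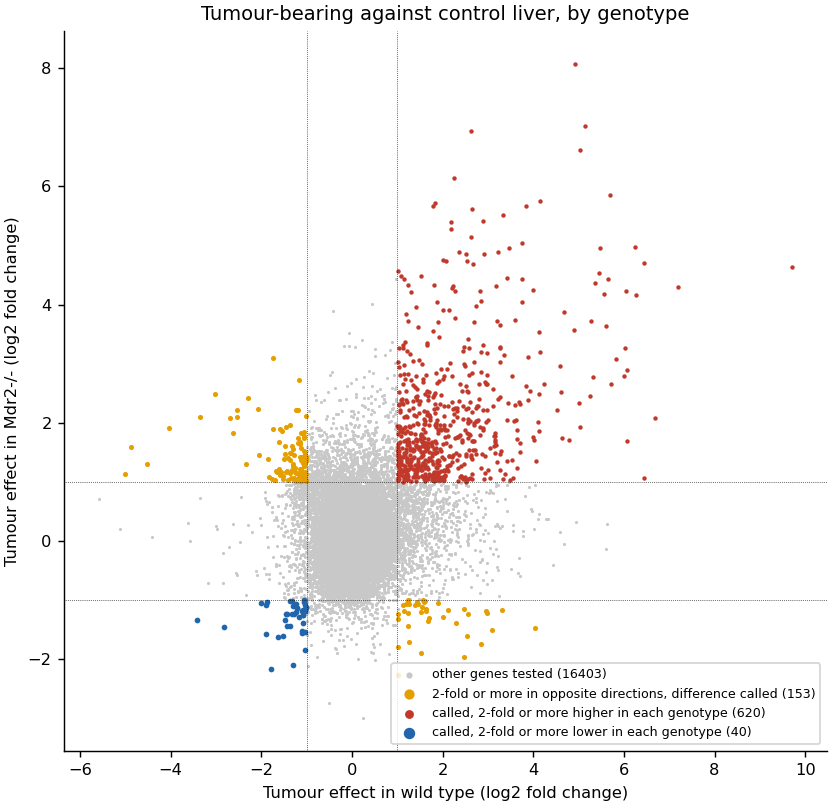
Tumour effect in wild type (horizontal, log2 fold change) against that in Mdr2-/- (vertical, log2 fold change) for each of 17216 genes, coloured by class. The 620 common rises lie in the upper right and the 40 common falls in the lower left, beyond 2-fold on both axes by construction, and many grey genes lie off the diagonal.

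Individual libraries differed in how far they carried the common set. For each library the median difference from the mean control of its genotype was taken over the 620 genes, as log2(CPM + 0.5). It was 0.465 to 0.646 in wild-type tumour-bearing replicates 1, 2 and 4 and 0.966 to 1.72 in replicates 3, 5 and 6. In Mdr2-/- tumour-bearing livers it was 0.689 in replicate 1 and 1.05 to 1.65 in the other 5. Among controls, Mdr2-/- replicate 4 stood at 0.371, with 82.1% of the 620 genes above the control mean, and the other 11 lay between -0.133 and 0.0652. Since these genes were chosen from the same libraries, the values are a description. Without Mdr2-/- control replicate 4, 706 genes rose and 49 fell in common. Wild-type tumour-bearing replicate 6 and Mdr2-/- tumour-bearing replicate 1 stood apart from their groups on the first 2 principal components. Without both, 3421 genes were called higher and 2963 lower, with 694 common rises and 61 common falls.

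**Figure D2:**
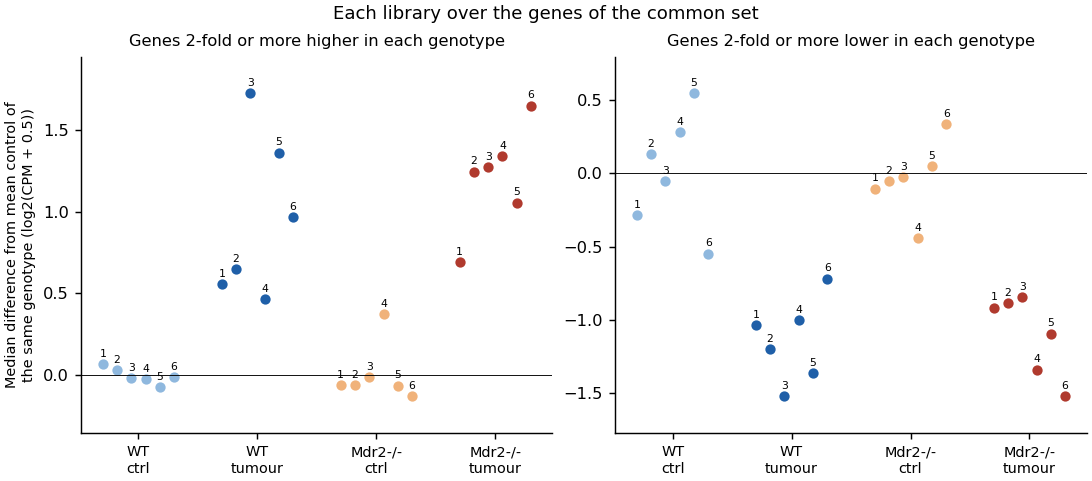
Median difference of each library from the mean control of its genotype, over the 620 common rises and over the 40 common falls, on the log2(CPM + 0.5) scale; each point is 1 library. Mdr2-/- control replicate 4 lies at 0.371 over the rises, closer to the tumour-bearing livers than the other controls, and 3 wild-type tumour-bearing livers lie at 0.465 to 0.646.

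The composition of the libraries moved with the tumour as well. Mitochondrial-encoded genes took 5.97 to 9.21% of the counts in wild-type controls against 4.28 to 7.27% with tumour. In Mdr2-/- livers the share was 3.90 to 5.0% without and 2.74 to 5.75% with tumour. The mean difference, averaged over genotypes, was -1.32 percentage points (2-sided exact permutation within genotype, p = 0.00519, adjusted p = 0.00519 over 2 shares). A set of 7 abundant nuclear non-coding RNAs took 2.91 to 5.42% in wild-type controls against 2.3 to 6.51% with tumour, and 1.74 to 4.29% against 4.60 to 7.95% in Mdr2-/- mice. Its mean difference was 2.10 points (exact permutation p = 0.00119, adjusted p = 0.00237). With the share of these RNAs as a covariate, 2826 genes were called higher and 2191 lower, of which 1744 and 991 were called without it. The common set then held 551 rises and 29 falls, of which 447 and 11 were in the common set without it.

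The largest common rises with no overlap of tumour-bearing and control libraries in either genotype included Slco1a6, Pla2g5, Spp1 and Gpc3. Slco1a6, an organic anion transporter that mice express mainly in kidney, was at 0.0872 to 0.916 CPM (median 0.308) in wild-type controls and 6.15 to 26.1 CPM (median 10.9) in wild-type tumour-bearing livers. Slco1a6 in Mdr2-/- mice was at 0.0351 to 0.367 CPM (median 0.184) in Mdr2-/- controls and 9.87 to 27.7 CPM (median 19.9) in Mdr2-/- tumour-bearing livers. Its tumour term of 5.79 ± 0.37 (edgeR adjusted p = 7.09e-11) was the largest of the genes named by this rule, and all 12 tumour-bearing livers lay above all 12 controls. Pla2g5, a secreted phospholipase A2 whose second promoter is shown above, was at 0 to 0.733 CPM (median 0.264) in wild-type controls and 11 to 20.1 CPM (median 15.0) in wild-type tumour-bearing livers. Pla2g5 in Mdr2-/- mice was at 0.467 to 1.23 CPM (median 0.700) in Mdr2-/- controls and 8.10 to 22.5 CPM (median 17.0) in Mdr2-/- tumour-bearing livers. Again the 12 tumour-bearing livers lay above all controls, and the tumour term was 4.92 ± 0.29 (adjusted p = 1.91e-11). Spp1 encodes osteopontin, a secreted glycoprotein of bile duct cells. It was at 40.1 to 119 CPM (median 58.2) in wild-type controls and 148 to 1308 CPM (median 457) in wild-type tumour-bearing livers, and at 40.0 to 251 CPM (median 92.8) in Mdr2-/- controls and 1050.5 to 3826 CPM (median 2018) in Mdr2-/- tumour-bearing livers. In each genotype the groups were apart, although the lowest wild-type tumour-bearing liver lay below the highest Mdr2-/- control, and the tumour term was 3.74 ± 0.39 (adjusted p = 2.21e-07). Gpc3, an oncofetal proteoglycan of the cell surface, was at 0.681 to 1.66 CPM (median 1.12) in wild-type controls and 9.35 to 18.8 CPM (median 10.3) in wild-type tumour-bearing livers. Gpc3 in Mdr2-/- mice was at 0.634 to 1.72 CPM (median 1.21) in Mdr2-/- controls and 3.19 to 32.1 CPM (median 7.08) in Mdr2-/- tumour-bearing livers. All 12 tumour-bearing livers were above all controls (tumour term 3.25 ± 0.31, adjusted p = 5.06e-08), and the effect was 3.36 in wild type and 3.14 in Mdr2-/-.

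**Figure D3:**
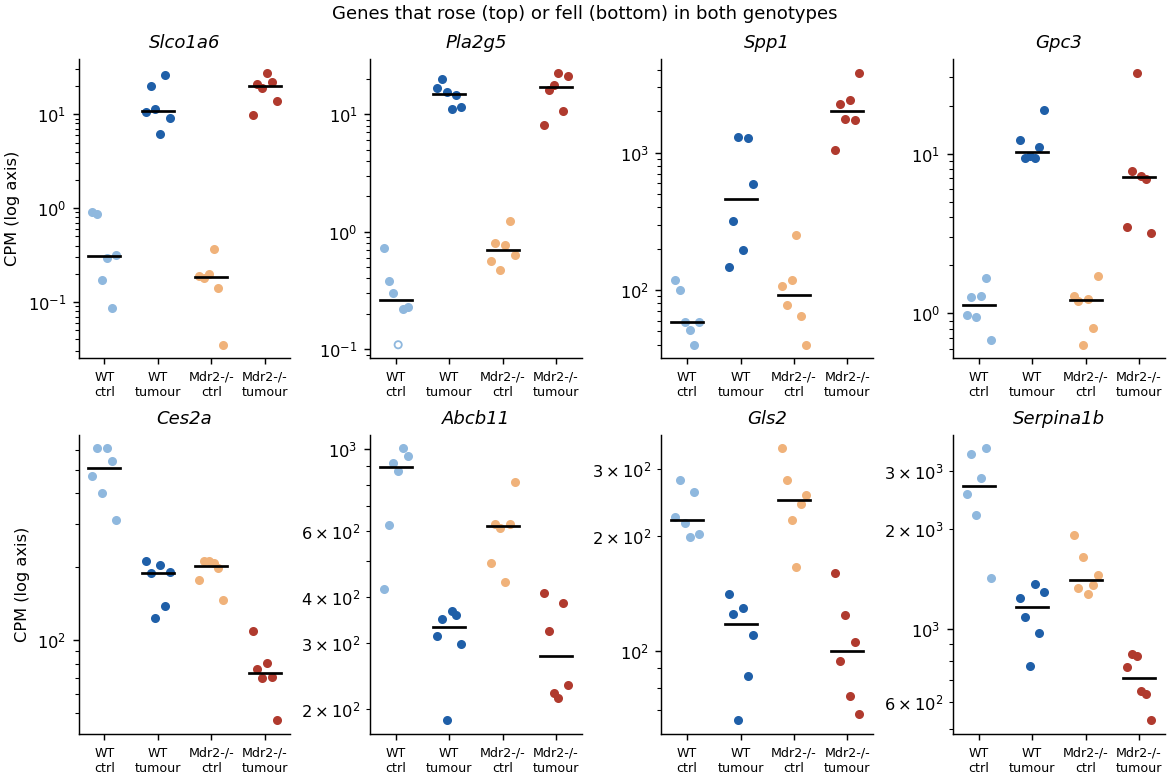
Level in each library (points, CPM on a log axis) with the group median (line) for 4 genes that rose and 4 that fell in both genotypes; an open point stands for a library at 0, drawn at the foot of the panel. In each panel the 6 tumour-bearing libraries of a genotype lie wholly above (top) or below (bottom) the 6 controls of that genotype.

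The other 6 of the 10 largest rises completed the set, and several differed in size between genotypes. Sdcbp2, the PDZ protein syntenin-2, was at 0.128 to 0.430 CPM (median 0.200) in wild-type controls and 7.27 to 23.2 CPM (median 14.9) in wild-type tumour-bearing livers. Sdcbp2 in Mdr2-/- mice was at 0.413 to 1.16 CPM (median 0.480) in Mdr2-/- controls and 3.14 to 13.7 CPM (median 4.48) in Mdr2-/- tumour-bearing livers. It rose by 6.03 in wild type and 3.26 in Mdr2-/-, and the difference was called (edgeR adjusted p = 0.00196). Ang5, an angiogenin-family ribonuclease, was at 0.0426 to 0.733 CPM (median 0.477) in wild-type controls and 34.2 to 71.5 CPM (median 42.5) in wild-type tumour-bearing livers, and at 0.751 to 6.47 CPM (median 4.14) in Mdr2-/- controls and 7.07 to 37.6 CPM (median 13.6) in Mdr2-/- tumour-bearing livers. Its effects of 6.70 and 2.08 differed (adjusted p = 2.51e-05), and its reads may be shared with the near-identical Ang4. Fam83a, a scaffold of casein kinase 1, was at 0.128 to 1.04 CPM (median 0.377) in wild-type controls and 8.27 to 25.8 CPM (median 17.4) in wild-type tumour-bearing livers. Fam83a in Mdr2-/- mice was at 1.41 to 3.11 CPM (median 1.99) in Mdr2-/- controls and 6.15 to 27.9 CPM (median 12.2) in Mdr2-/- tumour-bearing livers. Its rise was 5.32 in wild type and 2.78 in Mdr2-/- (difference, adjusted p = 0.00421). Ptgfr, the receptor of prostaglandin F2-alpha, was at 0.426 to 2.82 CPM (median 0.984) in wild-type controls and 18.3 to 35.1 CPM (median 29.3) in wild-type tumour-bearing livers, and at 0.868 to 4.54 CPM (median 1.14) in Mdr2-/- controls and 10.4 to 17.4 CPM (median 13.3) in Mdr2-/- tumour-bearing livers. It rose by 4.59 and 2.96, and this difference too was called (adjusted p = 0.0278).

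For Spink1 and Prss35 no difference between genotypes was called. Spink1, a secreted trypsin inhibitor, was at 0 to 0.794 CPM (median 0.0653) in wild-type controls and 5.63 to 10.5 CPM (median 8.16) in wild-type tumour-bearing livers. Spink1 in Mdr2-/- mice was at 0.225 to 1.74 CPM (median 0.377) in Mdr2-/- controls and 2.36 to 14.1 CPM (median 6.39) in Mdr2-/- tumour-bearing livers. All tumour-bearing livers were above all controls, with a tumour term of 4.39 ± 0.44 (edgeR adjusted p = 1.23e-07). Prss35, a secreted protein of the serine protease family, was at 0.0852 to 0.383 CPM (median 0.112) in wild-type controls and 0.476 to 21 CPM (median 4.28) in wild-type tumour-bearing livers, and at 0.176 to 1.14 CPM (median 0.475) in Mdr2-/- controls and 7.15 to 31.1 CPM (median 10.3) in Mdr2-/- tumour-bearing livers. The tumour term was 4.87 ± 0.55 (adjusted p = 6.15e-07). The wild-type tumour-bearing livers spread over more than an order of magnitude, and the lowest of them lay below the highest Mdr2-/- control.

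Most bile duct markers rose. Of 22 markers, all tested, 14 were called higher and 0 lower by edgeR, a share of 63.6% against 16.6% of all genes tested, and 11 were in the common set. Their median tumour term was 1.11, against 0.03 for all genes tested. In wild type 17 were called higher (all genes tested, 16.9%) and 0 lower. In Mdr2-/- 12 were higher (all genes tested, 17.9%) and 2 lower. The median effects were 2.16 and 1.13. The difference between genotypes was called for 6 of the 22, a share near the 25.3% of all genes tested. Wfdc2, a small secreted protein with protease-inhibitor-like domains, was at 1.11 to 1.64 CPM (median 1.27) in wild-type controls and 16.4 to 29.8 CPM (median 23.2) in wild-type tumour-bearing livers. Wfdc2 in Mdr2-/- mice was at 2.21 to 7.35 CPM (median 3.52) in Mdr2-/- controls and 11.1 to 41.5 CPM (median 19.8) in Mdr2-/- tumour-bearing livers. All 12 tumour-bearing livers lay above all controls (tumour term 3.24 ± 0.27, edgeR adjusted p = 7.57e-09). Cftr, the chloride channel of duct cells, was at 0.182 to 0.931 CPM (median 0.303) in wild-type controls and 0.528 to 13.7 CPM (median 3.90) in wild-type tumour-bearing livers, and at 1.55 to 11.5 CPM (median 2.91) in Mdr2-/- controls and 8.88 to 36.1 CPM (median 20.6) in Mdr2-/- tumour-bearing livers. Both pairs of groups overlapped, and the tumour term was 2.87 ± 0.47 (adjusted p = 7.21e-05). The keratins Krt7 and Krt19 had tumour terms of 2.54 ± 0.37 and 2.25 ± 0.39; they lie outside the naming rule and were chosen after their values were seen. Krt8, Krt18, Cldn4, Elf3, Muc1, Prom1 and Aqp1 were among those not called. The summed level of the 22 markers was 415.1 to 545.5 CPM in wild-type controls, 795.1 to 2290 CPM in wild-type tumour-bearing livers, 1024 to 1836 CPM in Mdr2-/- controls and 1885 to 5197 CPM in Mdr2-/- tumour-bearing livers. Within each genotype the groups were apart, and Mdr2-/- controls reached the range of wild-type tumour-bearing livers. Spp1 weighs heavily in these sums: it reached 3830 CPM in a library, against 785 CPM for Krt8, the next highest member. It was named above for groups that did not overlap, so the gap between the sums is a description. The sum of the other markers was not examined.

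Of 12 oncofetal and hepatoblast genes 10 were tested. Of these, 4 were called higher (40%, against 16.6% of all genes tested) and 0 lower. The 2 common rises were Gpc3 and the RNA-binding protein Igf2bp1. Igf2, a fetal growth factor, was at 0.473 to 2.5 CPM (median 1.48) in wild-type controls and 1.10 to 3.04 CPM (median 1.71) in wild-type tumour-bearing livers. Igf2 in Mdr2-/- mice was at 0.968 to 3.79 CPM (median 1.94) in Mdr2-/- controls and 1.73 to 202 CPM (median 2.21) in Mdr2-/- tumour-bearing livers. The groups overlapped in both genotypes and 1 Mdr2-/- tumour-bearing liver, replicate 3, lay far above all others. The Igf2 tumour term was 2.40 ± 0.89 (edgeR adjusted p = 0.0451), and without that library it was 0.31 and not called (adjusted p = 0.461). It was called in 20 of 39 alternative settings.

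Several genes typical of kidney epithelium rose, although most of that list was hardly detected. Of its 18 members 8 passed the filter. Of these, 5 (Slco1a6, Akr1cl, Cdh16, Lrp2 and Pax8) were called higher, 62.5% against 16.6% of all genes tested. All 5 were common rises, as were 3.60% of all genes tested. A member as low in controls as Akr1cl or Cdh16 could pass the filter only through tumour-bearing livers, so the count is a description. With the stricter filter 3 members were tested and 2 called higher, against 2375 of the 13519 genes tested there. Akr1cl, of the aldo-keto reductase family, was at 0 to 0.274 CPM (median 0.0215) in wild-type controls and 0.0866 to 9.58 CPM (median 1.31) in wild-type tumour-bearing livers. Akr1cl in Mdr2-/- mice was at 0.0703 to 1.04 CPM (median 0.143) in Mdr2-/- controls and 5.53 to 23.2 CPM (median 7.32) in Mdr2-/- tumour-bearing livers. The Mdr2-/- groups were apart, the wild-type groups overlapped, and the tumour term was 5.11 ± 0.67 (edgeR adjusted p = 4.41e-06). Cdh16, a cadherin of kidney tubules, was at 0.0436 to 0.855 CPM (median 0.146) in wild-type controls and 0.0880 to 3.04 CPM (median 1.44) in wild-type tumour-bearing livers, and at 0.0334 to 0.144 CPM (median 0.0878) in Mdr2-/- controls and 1.97 to 22.6 CPM (median 7.73) in Mdr2-/- tumour-bearing livers. It rose by 2.62 in wild type and by 6.93 in Mdr2-/-, a difference that was called (adjusted p = 0.00926). Defining transcripts of kidney were near absent. Aqp2 was at 0 in all 24 libraries, and the highest level in any library was 0.0834 CPM for Umod and 0.0292 CPM for Slc12a1.

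**Figure D4:**
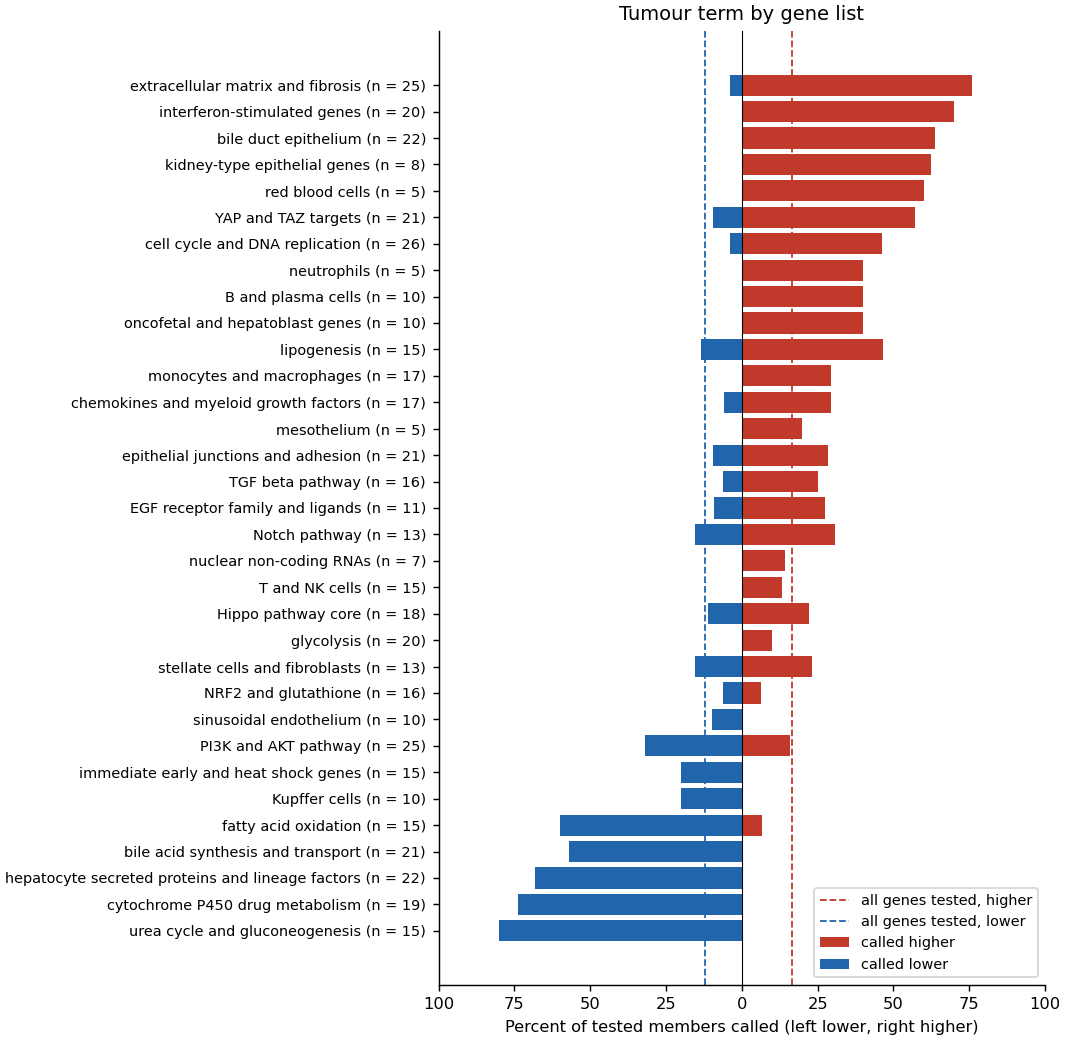
Percent of the tested members of each gene list called higher (bars to the right) or lower (bars to the left) for the tumour term, for lists with at least 5 tested members. Dashed lines mark the shares among all genes tested, 16.6% higher and 12.1% lower.

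Among 21 tested targets of YAP1 and its paralog TAZ, 12 were called higher (57.1%, against 16.6% of all genes tested) and 2 lower (0 lower with total library size and on TPM), and 5 were common rises; the list's median tumour term was 0.62. Ankrd1, a muscle ankyrin-repeat protein whose promoter is shown above with its TEAD matches, was at 0.227 to 2.3 CPM (median 0.431) in wild-type controls and 0.859 to 12.9 CPM (median 5.53) in wild-type tumour-bearing livers. Ankrd1 in Mdr2-/- mice was at 1.16 to 5.08 CPM (median 1.84) in Mdr2-/- controls and 5.60 to 19.2 CPM (median 11.6) in Mdr2-/- tumour-bearing livers. The Mdr2-/- groups were apart and the wild-type groups overlapped (tumour term 2.49 ± 0.43, edgeR adjusted p = 9.97e-05). Tgfb2, a ligand of the TGF beta family, was at 0.947 to 2.08 CPM (median 1.55) in wild-type controls and 4.29 to 29.4 CPM (median 9.31) in wild-type tumour-bearing livers, and at 4.95 to 16.2 CPM (median 5.88) in Mdr2-/- controls and 16.1 to 41.8 CPM (median 23.7) in Mdr2-/- tumour-bearing livers. Ctgf, a matricellular protein, was at 6.54 to 14.5 CPM (median 11.1) in wild-type controls and 24.2 to 84.0 CPM (median 34.0) in wild-type tumour-bearing livers. Ctgf in Mdr2-/- mice was at 10.1 to 59.8 CPM (median 21.9) in Mdr2-/- controls and 55.7 to 139 CPM (median 73.3) in Mdr2-/- tumour-bearing livers. For both genes the wild-type groups were apart and the Mdr2-/- groups overlapped, with tumour terms of 2.39 ± 0.33 (adjusted p = 8.54e-06) and 1.81 ± 0.25 (adjusted p = 9.51e-06). Cyr61, Amotl2, Axl, Lats2, Nuak2, Gadd45b and Asap1 were not called. Nt5e, the ectonucleotidase CD73, went the other way. It was at 75.8 to 142 CPM (median 131) in wild-type controls and 40.7 to 71.0 CPM (median 48.7) in wild-type tumour-bearing livers, and at 15.8 to 59.6 CPM (median 33.6) in Mdr2-/- controls and 19.9 to 50.4 CPM (median 33.6) in Mdr2-/- tumour-bearing livers, so that it fell by 1.29 on the log2 scale in wild type and differed by -0.06 in Mdr2-/- (difference, adjusted p = 0.0111); the tumour term of -0.67 ± 0.21 (adjusted p = 0.0174) was not called with total library size, on TPM, with voom, against 1.5-fold or with the nuclear RNA share as a covariate.

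Of 18 members of the Hippo pathway, 4 were called higher (22.2%, against 16.6% of all genes tested) and 2 lower (11.1%, against 12.1%), shares near those of all genes. With total library size 9 were higher and 0 lower, on TPM 5 and 0, and with the nuclear RNA covariate 8 and 1. Over all 17216 genes tested, 6498 were higher and 557 lower with total library size. Tead2, a DNA-binding partner of YAP1, was at 0.545 to 1.38 CPM (median 1.16) in wild-type controls and 1.28 to 7.51 CPM (median 2.43) in wild-type tumour-bearing livers, and at 1.34 to 3.61 CPM (median 1.57) in Mdr2-/- controls and 2.69 to 10.6 CPM (median 6.43) in Mdr2-/- tumour-bearing livers. Its paralog Tead4 was at 0.213 to 0.454 CPM (median 0.390) in wild-type controls and 0.792 to 2.24 CPM (median 1.33) in wild-type tumour-bearing livers. Tead4 in Mdr2-/- mice was at 0.614 to 1.04 CPM (median 0.884) in Mdr2-/- controls and 0.810 to 2.5 CPM (median 1.76) in Mdr2-/- tumour-bearing livers. Both were common rises, with tumour terms of 1.68 ± 0.28 (edgeR adjusted p = 7.50e-05) and 1.41 ± 0.22 (adjusted p = 2.93e-05). Wwtr1, which encodes TAZ, was at 29.7 to 59.1 CPM (median 35.2) in wild-type controls and 56.5 to 74.9 CPM (median 66.0) in wild-type tumour-bearing livers, and at 45.9 to 57.3 CPM (median 51.6) in Mdr2-/- controls and 65.2 to 76.7 CPM (median 73.4) in Mdr2-/- tumour-bearing livers. It rose by 0.64 ± 0.10 (adjusted p = 2.69e-05), whereas the Yap1 term was negative and its call was lost in many settings, as given above.

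In the PI3K and AKT pathway 8 of 25 members were called lower (32%, against 12.1% of all genes tested) and 4 higher (16%, against 16.6%). The counts were 1 lower and 5 higher with total library size, and 1 lower and 4 higher on TPM. Calls over all genes tested moved with the scaling as well. Of 17216 genes, 557 were lower and 6498 higher with total library size, and 554 and 5058 on log2(TPM + 1). Irs1, the insulin receptor substrate, was at 30.3 to 52.1 CPM (median 35.0) in wild-type controls and 14.3 to 25.4 CPM (median 17.9) in wild-type tumour-bearing livers. Irs1 in Mdr2-/- mice was at 16.8 to 39.4 CPM (median 22.9) in Mdr2-/- controls and 11.6 to 23.7 CPM (median 15.0) in Mdr2-/- tumour-bearing livers. The tumour term was -0.82 ± 0.15 (edgeR adjusted p = 0.00017), with wild-type groups apart and Mdr2-/- groups overlapping. Pik3r3, a regulatory subunit of PI3K, was at 1.64 to 2.56 CPM (median 2.10) in wild-type controls and 2.64 to 5.61 CPM (median 3.75) in wild-type tumour-bearing livers, and at 1.72 to 4.14 CPM (median 2.42) in Mdr2-/- controls and 5.64 to 10.9 CPM (median 9.58) in Mdr2-/- tumour-bearing livers. The groups were apart in each genotype, and it rose by 1.35 ± 0.17 (adjusted p = 3.61e-06).

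Of 15 tested lipogenesis genes 7 were called higher (46.7%, against 16.6% of all genes tested), 2 lower and 6 not at all, with a median tumour term of 0.45, and 2 were common rises. With total library size 9 were higher and 0 lower, and on TPM 8 and 0. Scd1, the stearoyl-CoA desaturase of hepatocytes, was at 4340.3 to 9450.4 CPM (median 5352) in wild-type controls and 16963 to 32672 CPM (median 22086) in wild-type tumour-bearing livers. Scd1 in Mdr2-/- mice was at 2720.5 to 4616 CPM (median 3276) in Mdr2-/- controls and 4291 to 13178 CPM (median 8798) in Mdr2-/- tumour-bearing livers. The wild-type groups were apart, the Mdr2-/- groups overlapped, and the tumour term was 1.71 ± 0.19 (edgeR adjusted p = 4.43e-07). Pnpla3, a lipase of lipid droplets, was at 2.23 to 14.8 CPM (median 7.75) in wild-type controls and 9.59 to 39.4 CPM (median 28.8) in wild-type tumour-bearing livers, and at 3.62 to 7.08 CPM (median 5.56) in Mdr2-/- controls and 7.24 to 38.6 CPM (median 19.7) in Mdr2-/- tumour-bearing livers (tumour term 1.83 ± 0.30, adjusted p = 5.90e-05). Scd2, a desaturase of other tissues and of fetal liver, rose by 2.17 in Mdr2-/-, where it was at 18.5 to 24.6 CPM (median 23.1) in Mdr2-/- controls and 42.5 to 141 CPM (median 106) in Mdr2-/- tumour-bearing livers. In wild type its effect was 0.49, and the difference was called (adjusted p = 0.00161). Mlxipl, the carbohydrate-responsive factor ChREBP, had a tumour term of -0.54 ± 0.13 (adjusted p = 0.00347), which was not called with total library size, on TPM, with the nuclear RNA share as a covariate or against 1.5-fold.

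Of 7 adipocyte genes, 3 passed the filter, all of them genes of lipid droplets. All 3 were called higher, against 16.6% of all genes tested. Cidea, with hardly a count in controls, passed only through tumour-bearing livers, so this count is a description. Cidea held no count in wild-type controls and reached at most 0.0703 CPM in Mdr2-/- controls. It was between 0.836 and 9.56 CPM (median 3.37) in wild-type tumour-bearing livers, at least 164-fold above the level of 3 counts over the wild-type control group. In Mdr2-/- tumour-bearing livers it was between 0.405 and 1.49 CPM (median 0.532). All 12 tumour-bearing livers lay above all controls (edgeR adjusted p = 1.85e-08). Cidec, a droplet fusion protein, was at 1.88 to 3.67 CPM (median 2.44) in wild-type controls and 20.1 to 65.7 CPM (median 27.8) in wild-type tumour-bearing livers. Cidec in Mdr2-/- mice was at 2.44 to 5.54 CPM (median 4.09) in Mdr2-/- controls and 5.12 to 28.7 CPM (median 10.5) in Mdr2-/- tumour-bearing livers. It rose by 3.65 in wild type and 1.73 in Mdr2-/- (difference, adjusted p = 0.008). Plin4 coats droplets and had a tumour term of 1.13 ± 0.25 (adjusted p = 0.0012), larger in wild type than in Mdr2-/- (difference, adjusted p = 0.0396). Of the defining transcripts of fat tissue, Adipoq reached at most 0.427 CPM, Plin1 0.267 CPM, Retn 0.130 CPM and Lep 0.108 CPM in any library.

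Of 25 extracellular matrix genes 19 were called higher and 1 lower (76% higher, against 16.6% of all genes tested), with a median tumour term of 1.05 and 4 in the common set. In wild type 23 were called higher (all genes tested, 16.9%), and in Mdr2-/- 10 were higher (all genes tested, 17.9%) and 1 lower. The difference between genotypes was called for 11 of the 25, against 25.3% of all genes tested. The summed level of the list overlapped between groups in both genotypes, at 2578 to 5141 CPM (median 3567) in wild-type controls against 2509 to 5529 CPM (median 3196) with tumour, and 3706 to 5949 CPM (median 4362) against 3857 to 5272 CPM (median 4087) in Mdr2-/- mice, so its median was lower with tumour. Fn1, given below with a negative tumour term, weighs heavily in this sum. It reached 4490 CPM in a library, against 910 CPM for Sparc, the next highest member. The sum without Fn1 was not examined. Lox, which crosslinks collagen, was at 0.523 to 1.28 CPM (median 0.929) in wild-type controls and 2.38 to 17.0 CPM (median 3.22) in wild-type tumour-bearing livers. Lox in Mdr2-/- mice was at 2.21 to 9.65 CPM (median 2.71) in Mdr2-/- controls and 6.65 to 23.6 CPM (median 13.6) in Mdr2-/- tumour-bearing livers (tumour term 2.35 ± 0.35, edgeR adjusted p = 1.91e-05). Col5a2, a fibrillar collagen chain, was at 2.53 to 4.36 CPM (median 3.71) in wild-type controls and 9.18 to 40.4 CPM (median 12.4) in wild-type tumour-bearing livers, and at 11.4 to 31.2 CPM (median 12.8) in Mdr2-/- controls and 34.0 to 48.5 CPM (median 36.4) in Mdr2-/- tumour-bearing livers. Its groups were apart in each genotype, and the tumour term was 1.81 ± 0.25 (adjusted p = 8.11e-06). Timp1, an inhibitor of matrix metalloproteinases, rose by 3.42 in wild type and by 0.95 in Mdr2-/-, and the difference was called (adjusted p = 0.0074). Fn1, fibronectin, which hepatocytes secrete into plasma, had a tumour term of -0.71 ± 0.19 (adjusted p = 0.00677). That call was lost with total library size, on TPM, with the nuclear RNA share as a covariate and against 1.5-fold. Of 13 tested stellate cell and fibroblast markers, 3 were called higher (23.1%, against 16.6% of all genes tested) and 2 lower (15.4%, against 12.1%). With total library size 7 were higher and 0 lower, where 6498 of all 17216 genes tested were higher and 557 lower. The contractile proteins Acta2 and Tagln were common rises, with tumour terms of 1.71 ± 0.35 (adjusted p = 0.000702) and 1.68 ± 0.28 (adjusted p = 6.64e-05). The summed level of this marker list was 504.9 to 642.9 CPM in wild-type controls and 549.8 to 668.4 CPM in wild-type tumour-bearing livers. The Mdr2-/- sums were 567.5 to 744.3 CPM in Mdr2-/- controls and 700.1 to 870.7 CPM in Mdr2-/- tumour-bearing livers, so that the groups overlapped in both genotypes.

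Among the lists of immune genes, those of antibody-producing cells and of interferon-stimulated genes held common rises. Of 10 tested B and plasma cell genes, 4 were called higher (40%, against 16.6% of all genes tested) and 0 lower, and all 4 were in the common set. These were the antibody chains Ighg1, Igkc and Igha and the joining chain Jchain, made by plasma cells, whereas Ms4a1, Cd79a, Cd79b, Pax5 and Ighm were among those not called. Ighg1 was at 0.273 to 1.77 CPM (median 1.01) in wild-type controls and 0.584 to 25.4 CPM (median 6.50) in wild-type tumour-bearing livers. Ighg1 in Mdr2-/- mice was at 1.08 to 3.75 CPM (median 1.76) in Mdr2-/- controls and 9.95 to 38.3 CPM (median 17.6) in Mdr2-/- tumour-bearing livers. The Mdr2-/- groups were apart, the wild-type groups overlapped, and the tumour term was 3.27 ± 0.44 (edgeR adjusted p = 6.48e-06). Jchain rose by 2.11 ± 0.32 (adjusted p = 2.72e-05) and Igkc by 1.35 ± 0.26 (adjusted p = 0.000363), both again with Mdr2-/- groups apart and wild-type groups overlapping. Reads of immunoglobulin genes can be shared between near-identical segments.

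Interferon-stimulated genes were called higher in 14 of 20 cases (70%, against 16.6% of all genes tested) and lower in 0, with a median tumour term of 0.74. In wild type 14 were called higher (all genes tested, 16.9%) and in Mdr2-/- 7 (all genes tested, 17.9%), with median effects of 1.13 and 0.35. The difference between genotypes was called for 5 of the 20, a share near the 25.3% of all genes tested. Common rises numbered 3. Ifit2, an RNA-binding antiviral protein, was at 2.92 to 6.04 CPM (median 4.38) in wild-type controls and 9.91 to 25.9 CPM (median 15.6) in wild-type tumour-bearing livers. Ifit2 in Mdr2-/- mice was at 5.71 to 9.10 CPM (median 8.31) in Mdr2-/- controls and 8.47 to 21.2 CPM (median 17.4) in Mdr2-/- tumour-bearing livers (tumour term 1.45 ± 0.18, edgeR adjusted p = 1.67e-06). Ifi44 was at 1.03 to 2.36 CPM (median 1.96) in wild-type controls and 3.90 to 10.5 CPM (median 5.09) in wild-type tumour-bearing livers, and at 1.97 to 5.13 CPM (median 3.23) in Mdr2-/- controls and 5.87 to 10.8 CPM (median 6.85) in Mdr2-/- tumour-bearing livers. Its groups were apart in each genotype, with a tumour term of 1.41 ± 0.20 (adjusted p = 9.60e-06). Of 17 monocyte and macrophage markers 5 were called higher (29.4%, against 16.6% of all genes tested) and 0 lower. The difference between genotypes was called for 11 of the 17, against 25.3% of all genes tested. In wild type 10 were called higher (all genes tested, 16.9%). In Mdr2-/- 0 were higher (all genes tested, 17.9%) and 3 lower (all genes tested, 17.0%). The count higher for the tumour term was 9 with total library size and 3 with the nuclear RNA covariate. Of 15 tested T and NK cell markers 2 were called higher (13.3%, against 16.6% of all genes tested) and 0 lower. The count higher was 8 with total library size, 7 on TPM, 6 with voom, 4 without the 2 libraries that stood apart and 0 with the nuclear RNA covariate. Of all 17216 genes tested, 6498 were called higher with total library size and 5058 on log2(TPM + 1). The summed level of the macrophage list was 373.9 to 526 CPM in wild-type controls, 441.7 to 740 CPM in wild-type tumour-bearing livers, 663.7 to 1149 CPM in Mdr2-/- controls and 709.8 to 1227 CPM in Mdr2-/- tumour-bearing livers.

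Among the 40 common falls, 4 genes met the naming rule. Of the 620 common rises 70 did so, and the 10 largest of these were named. Ces2a, a carboxylesterase that hydrolyses drugs and lipids, was at 310.1 to 612 CPM (median 506) in wild-type controls and 123 to 210.4 CPM (median 189) in wild-type tumour-bearing livers. Ces2a in Mdr2-/- mice was at 146 to 211 CPM (median 202) in Mdr2-/- controls and 46.9 to 109 CPM (median 73.2) in Mdr2-/- tumour-bearing livers. In each genotype the groups were apart, and the tumour term was -1.41 ± 0.13 (edgeR adjusted p = 4.02e-08). Abcb11, the bile salt export pump, was at 419.9 to 1003 CPM (median 894) in wild-type controls and 186 to 366 CPM (median 331) in wild-type tumour-bearing livers, and at 438 to 812 CPM (median 619) in Mdr2-/- controls and 214 to 409.5 CPM (median 278) in Mdr2-/- tumour-bearing livers. All 12 tumour-bearing livers lay below all 12 controls (tumour term -1.19 ± 0.16, adjusted p = 5.15e-06). Gls2, the glutaminase of liver, was at 199 to 281 CPM (median 220.3) in wild-type controls and 65.7 to 141 CPM (median 117) in wild-type tumour-bearing livers. Gls2 in Mdr2-/- mice was at 166 to 340.0 CPM (median 249) in Mdr2-/- controls and 68.3 to 159.6 CPM (median 99.8) in Mdr2-/- tumour-bearing livers. It too was lower in every tumour-bearing liver than in any control (tumour term -1.17 ± 0.14, adjusted p = 2.15e-06). Serpina1b, an alpha-1-antitrypsin whose promoter is shown above beside that of Serpina1a, was at 1421 to 3501 CPM (median 2701) in wild-type controls and 769.5 to 1366 CPM (median 1162) in wild-type tumour-bearing livers, and at 1273 to 1912 CPM (median 1404) in Mdr2-/- controls and 529 to 841 CPM (median 709.7) in Mdr2-/- tumour-bearing livers. The groups were apart in each genotype, with a tumour term of -1.16 ± 0.13 (adjusted p = 8.38e-07). Serpina1a and Serpina1c, nearly identical in sequence to it, had tumour terms of -1.19 ± 0.15 (adjusted p = 2.82e-06) and -1.08 ± 0.19 (adjusted p = 0.000148), and reads may have been split between them.

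Most genes of the hepatocyte list fell. Of 22 secreted proteins and lineage factors 15 were called lower and 0 higher, 68.2% against 12.1% of all genes tested, with a median tumour term of -0.56; none was in the common set. Their summed level was 136300 to 178300 CPM in wild-type controls, 72910 to 123100 CPM in wild-type tumour-bearing livers, 104500 to 127500 CPM in Mdr2-/- controls and 44680 to 81690 CPM in Mdr2-/- tumour-bearing livers. Groups did not overlap within either genotype. Fga, the fibrinogen alpha chain, was at 2545 to 6077 CPM (median 4089.5) in wild-type controls and 1571 to 3226 CPM (median 1843) in wild-type tumour-bearing livers. Fga in Mdr2-/- mice was at 2569.9 to 3648 CPM (median 2950) in Mdr2-/- controls and 1460.8 to 1924 CPM (median 1543) in Mdr2-/- tumour-bearing livers (tumour term -0.98 ± 0.14, edgeR adjusted p = 8.67e-06). With total library size 11 of these 22 genes were called lower and 1 higher, and on TPM the counts were the same.

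In bile acid synthesis and transport 12 of 21 genes were called lower (57.1%, against 12.1% of all genes tested) and 0 higher. Besides Abcb11, the uptake transporter Slc10a1 was at 469.7 to 773 CPM (median 603) in wild-type controls and 148 to 291 CPM (median 231) in wild-type tumour-bearing livers. Slc10a1 in Mdr2-/- mice was at 206 to 399 CPM (median 222) in Mdr2-/- controls and 104 to 218 CPM (median 144) in Mdr2-/- tumour-bearing livers (tumour term -1.11 ± 0.15, edgeR adjusted p = 9.09e-06). Cyp7b1, of the acidic pathway of bile acid synthesis, fell by 2.20 on the log2 scale in wild type, from a control median of 87.3 to 21.8 CPM. In Mdr2-/- its effect was 0.15, between medians of 17.9 and 18.9 CPM, and the difference was called (adjusted p = 2.87e-05). Cyp7a1, which catalyses the first step of the classic pathway, was not called, and neither were Cyp8b1 and Baat.

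Cytochrome P450 genes of drug metabolism were called lower in 14 of 19 cases (73.7%, against 12.1% of all genes tested) and higher in 0, and 4 were common falls. With total library size and on TPM 9 were called lower. Cyp2b10, a target of the receptor CAR, was at 46.0 to 220.4 CPM (median 119.7) in wild-type controls and 23.8 to 81.8 CPM (median 39.8) in wild-type tumour-bearing livers. Cyp2b10 in Mdr2-/- mice was at 31.0 to 76.2 CPM (median 38.3) in Mdr2-/- controls and 3.99 to 18.3 CPM (median 9.20) in Mdr2-/- tumour-bearing livers (tumour term -1.70 ± 0.27, edgeR adjusted p = 4.30e-05). Cyp1a2, a target of the aryl hydrocarbon receptor, was at 349 to 700.4 CPM (median 535) in wild-type controls and 121 to 433 CPM (median 180.0) in wild-type tumour-bearing livers, and at 290.4 to 440.1 CPM (median 364) in Mdr2-/- controls and 95.8 to 219.5 CPM (median 148) in Mdr2-/- tumour-bearing livers. For both, the Mdr2-/- groups were apart and the wild-type groups overlapped, and the tumour term of Cyp1a2 was -1.28 ± 0.18 (adjusted p = 1.23e-05). Cyp4a14, an omega-hydroxylase of fatty acids, fell by 2.53 on the log2 scale in wild type and differed by -0.58 in Mdr2-/- (difference, adjusted p = 0.0124). Mdr2-/- controls, at 24.5 to 68.7 CPM, were already below all wild-type livers, whose lowest tumour-bearing value was 77.9 CPM. Reads of Cyp2b and Cyp4a genes may be shared with close paralogs.

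Amino acid and fatty acid catabolism moved the same way. Of 15 genes of the urea cycle and gluconeogenesis 12 were called lower (80%, against 12.1% of all genes tested) and 0 higher, and 2 were common falls. Hal, the histidine ammonia-lyase, was at 188 to 422 CPM (median 252) in wild-type controls and 64.9 to 136 CPM (median 111) in wild-type tumour-bearing livers. Hal in Mdr2-/- mice was at 110.1 to 289 CPM (median 191) in Mdr2-/- controls and 46.3 to 112 CPM (median 71.1) in Mdr2-/- tumour-bearing livers (tumour term -1.41 ± 0.17, edgeR adjusted p = 2.15e-06). Ass1, the argininosuccinate synthase of the urea cycle, was at 1892 to 3832 CPM (median 2699) in wild-type controls and 966 to 1769 CPM (median 1479.5) in wild-type tumour-bearing livers, and at 2624 to 4098 CPM (median 3401) in Mdr2-/- controls and 998 to 2298 CPM (median 1362) in Mdr2-/- tumour-bearing livers. In each genotype the groups were apart (tumour term -1.09 ± 0.14, adjusted p = 4.41e-06). Of 15 fatty acid oxidation genes 9 were called lower (60%, against 12.1% of all genes tested) and 1 higher (6.67%, against 16.6%). With total library size 5 were lower and 2 higher. Ehhadh, a bifunctional enzyme of peroxisomes, fell by 0.93 ± 0.15 (adjusted p = 5.16e-05). The one that rose was Fgf21, a hormone of the fasting response, which was at 0.603 to 7.71 CPM (median 1.79) in wild-type controls and 7.46 to 17.4 CPM (median 10.4) in wild-type tumour-bearing livers. Fgf21 in Mdr2-/- mice was at 0.801 to 3.30 CPM (median 1.36) in Mdr2-/- controls and 1.29 to 8.76 CPM (median 4.40) in Mdr2-/- tumour-bearing livers (tumour term 1.63 ± 0.35, adjusted p = 0.00108).

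Complete separation of the 24 libraries was rare. In 63 genes (0.366% of those tested) all 12 tumour-bearing livers lay above all 12 controls, and in 12 (0.0697%) all lay below. Of these, 60 and 2 were in the common set. The 12 that lay below were Abcb11, Gls2, the coagulation factors F7 and F10, Phyh, Pon3, Acsm1, Ndrg2, Prkar1a, Mkln1, Gphn and Ero1lb. Erbb4, a receptor of the EGF receptor family that binds neuregulins, was among the 63. It was at 1.26 to 2.54 CPM (median 1.55) in wild-type controls and 3.72 to 7.67 CPM (median 5.86) in wild-type tumour-bearing livers, and at 0.397 to 0.968 CPM (median 0.693) in Mdr2-/- controls and 4.46 to 9.80 CPM (median 8.61) in Mdr2-/- tumour-bearing livers. It rose by 1.79 in wild type and 3.56 in Mdr2-/- (difference, edgeR adjusted p = 0.00081). Its ligand Nrg1 was at 1.66 to 2.91 CPM (median 1.95) in wild-type controls and 14.3 to 23.3 CPM (median 19.1) in wild-type tumour-bearing livers. Nrg1 in Mdr2-/- mice was at 12.7 to 27.2 CPM (median 17.8) in Mdr2-/- controls and 11.5 to 18.1 CPM (median 15.6) in Mdr2-/- tumour-bearing livers. Nrg1 rose by 3.21 in wild type and differed by -0.27 in Mdr2-/- (difference, adjusted p = 2.31e-09), where the controls overlapped the range of the wild-type tumour-bearing livers.

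The additive term did not describe every gene that moved. Of the 4936 genes called for it, 870 (17.6%) were also called for the difference between genotypes, and 3485 genes were called for the difference but not for the tumour term. In each genotype alone, 2915 genes (16.9%) were called higher in wild type and 3074 (17.9%) in Mdr2-/-. The 928 genes called higher in both were 31.8% of the first and 30.2% of the second. Lower calls numbered 1976 (11.5%) and 2921 (17.0%), and the 483 shared were 24.4% and 16.5%. A further 243 genes were called higher in wild type and lower in Mdr2-/-, and 235 the reverse. Across the 17216 genes, which are not independent replicates, Pearson's r between the effects was 0.296 and Spearman's rho 0.115.

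At 2-fold or more, 156 genes moved in opposite directions. The difference was called for 153 of them, 40 with the rise in wild type and 113 with the fall there, and 0 of the 153 were called for the tumour term (edgeR). The size and direction in each genotype chose these genes, so the difference is a description. Opposite effects offset each other in the additive term, so the choice in part fixes the 0 as well. Hp, the acute-phase protein haptoglobin, was at 569 to 1075 CPM (median 871) in wild-type controls and 1711.3 to 2667 CPM (median 1876) in wild-type tumour-bearing livers. Hp in Mdr2-/- mice was at 3619.9 to 5232 CPM (median 4862) in Mdr2-/- controls and 1709.5 to 2773 CPM (median 2290.5) in Mdr2-/- tumour-bearing livers. Every wild-type tumour-bearing liver lay above its controls and every Mdr2-/- one below, and the effects of 1.24 and -1.01 gave a tumour term of 0.11 ± 0.27 (edgeR adjusted p = 0.792). Gstm1, a glutathione transferase, was at 355 to 1144 CPM (median 517) in wild-type controls and 915 to 4538 CPM (median 1381) in wild-type tumour-bearing livers, and at 1612 to 2546 CPM (median 2055) in Mdr2-/- controls and 403 to 1401 CPM (median 963) in Mdr2-/- tumour-bearing livers. Ly6e, an interferon-inducible surface protein, was at 103 to 296 CPM (median 149) in wild-type controls and 248 to 704 CPM (median 331) in wild-type tumour-bearing livers. Ly6e in Mdr2-/- mice was at 1272 to 1890.2 CPM (median 1425) in Mdr2-/- controls and 373 to 954 CPM (median 743) in Mdr2-/- tumour-bearing livers. For both, the wild-type groups overlapped and the Mdr2-/- groups were apart, with Mdr2-/- controls above every other group for Ly6e.

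The most abundant genes of the reverse pattern included Mup9 and Cyp3a44. Mup9, a major urinary protein, was at 83.6 to 2394 CPM (median 210.4) in wild-type controls and 18.0 to 159 CPM (median 59.5) in wild-type tumour-bearing livers. Mup9 in Mdr2-/- mice was at 0.738 to 8.11 CPM (median 5.61) in Mdr2-/- controls and 13.9 to 27.9 CPM (median 20.9) in Mdr2-/- tumour-bearing livers. Its effects were -3.35 and 2.09. Cyp3a44, a female-predominant P450 of mouse liver, was at 45.5 to 1271 CPM (median 298) in wild-type controls and 3.21 to 55.0 CPM (median 7.45) in wild-type tumour-bearing livers, and at 2.97 to 7.80 CPM (median 5.11) in Mdr2-/- controls and 7.65 to 28.7 CPM (median 11.4) in Mdr2-/- tumour-bearing livers, with effects of -4.88 and 1.58. Wild-type controls ranged over more than an order of magnitude in both genes, and reads may be shared within the Mup and Cyp3a families.

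**Figure D5:**
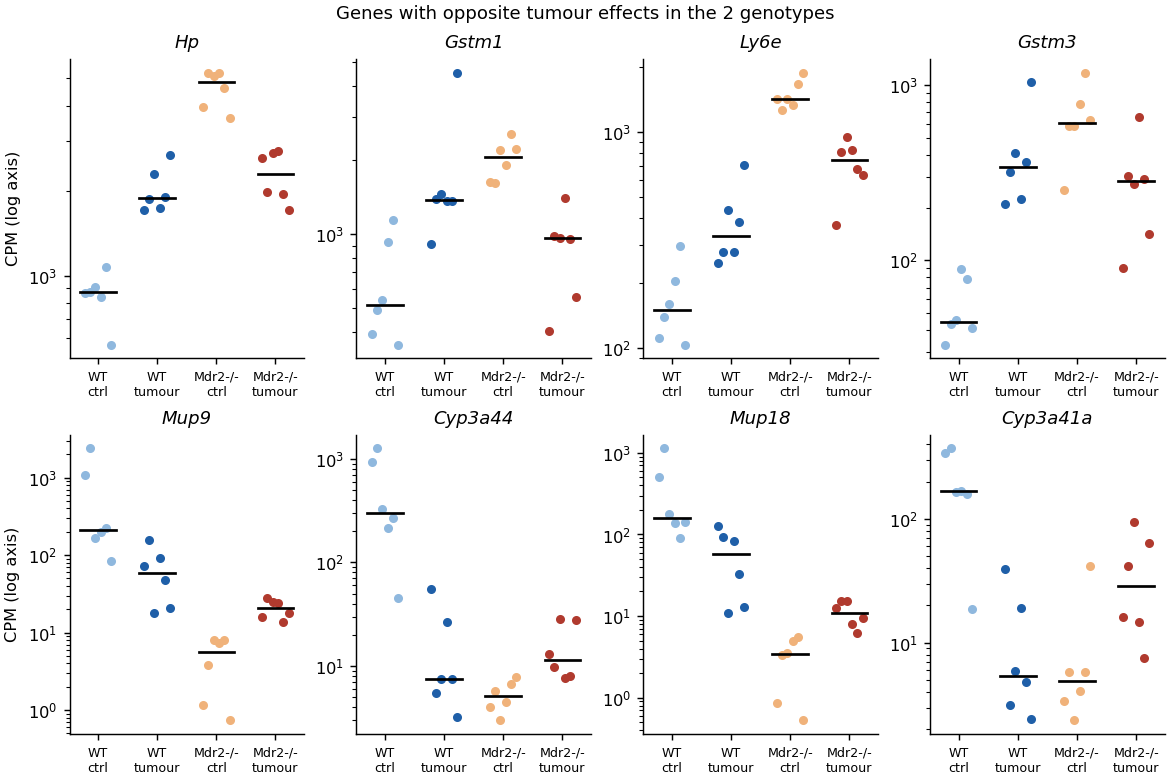
Level in each library (points, CPM on a log axis) with the group median (line) for the 4 most abundant genes of each opposite pattern. In the top row (Hp, Gstm1, Ly6e, Gstm3) wild-type medians rise with the tumour and Mdr2-/- medians fall, and in the bottom row (Mup9, Cyp3a44, Mup18, Cyp3a41a) the reverse holds.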

How the data were processed

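RNA of 24 mouse livers was sequenced in paired-end mode after ribosomal RNA depletion with a kit named as one for bacteria, per the labels' protocols. The authors deposited raw counts per gene and TPM values, which are scaled to the same total in each library. Strandedness is not labelled, so the reads of a gene and of an antisense partner are not separable. The submitters' processing notes name build mm39 and DESeq2 without a version, and the sources used here name no aligner, counter or annotation.

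Libraries were grouped by their treatment labels (4 groups of 6). Replicate numbers follow the order of the samples and pair none. Each of 60 replicate pairs differed by more than sampling noise. Totals were 20976459 to 30288385 counts. Of 49315 genes, 174 had no symbol. Any of these that passed the filter took part in the tests and could not be named.

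The deposited counts went into edgeR 4.0.16 (R 4.3.3). Low genes were removed with filterByExpr (groups, minimum count 10), libraries were scaled by TMM, and robust glmQLFit was followed by the 2-sided glmQLFTest. The SE is the absolute log2 fold change over the square root of F. The biological coefficient of variation was 0.305. On data simulated for the tumour term (16960 genes), the same fit recovered 84 of 99 at 2-fold and 97 of 98 at 4-fold, with 11 false calls. The simulated effect was the same in both genotypes, with the spread of the model with a mean per group. Genes whose effects differ between genotypes (25.3% were called for this in the data) were not simulated, so these rates do not cover them. Shares of counts were compared by exact permutation within genotype.

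Genes were named by rule: Abcb4, Akt1 and Yap1; the 10 largest rises and falls of the common set with 5 CPM or more in the higher group, 10 counts or more in the lower group and no overlap in either genotype; up to 3 called members of each list with the largest one the other way; and the 4 most abundant genes of each opposite pattern. Not all are printed. Genes given at the 2-fold limit, Krt7, Krt19, uncalled members and marker extremes were added after their values were seen. Members and gene lists were chosen with earlier results of these data known.

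Each fit was repeated with other scaling (DESeq2 size factors, upper quartile, total library size), with no or a stricter filter, with DESeq2 1.42.0 and limma 3.58.1 (voom, and trend on log2(TPM + 1) and log2(TPM + 0.1)), with group means, no robust estimation, the nuclear RNA share as a covariate, a test against 1.5-fold, removal of mitochondrial and haemoglobin genes, and fits without 1 or 2 libraries. Promoter windows came from RefSeq. The self-test and figures used fixed seeds.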

Additional observations from a re-analysis of the deposited data

Results flagged for a closer look

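In the genes named here and the shares of mitochondrial-encoded genes and nuclear non-coding RNAs, 295 groups of 6 libraries were examined with Dixon's test. It looks for a library far from the other 5, and 44 groups had one. Its nominal rate of 1 in 20 is for normal values and independent groups. Levels in CPM need not be normal and the genes share libraries, so the 44 cannot be set against that rate. Levels are CPM. Mdr2-/- control replicate 4 held 11 of the 44. It was the highest of its group for Spp1 (250.8), Wfdc2 (7.35), Cftr (11.5), Spink1 (1.74), Ptgfr (4.54), Tgfb2 (16.2), Tead2 (3.61), Lox (9.65), Timp1 (8.72) and Col5a2 (31.2), and the lowest for Ehhadh (237). Each of these directions is that of the tumour term, and the fit without it is given with the results.

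Wild-type tumour-bearing replicate 6 was the highest of its group for Gpc3 (18.8), Cidec (65.7), Fn1 (3934), Fga (3226), Cyp1a2 (433) and Gstm1 (4538), and had the lowest share of nuclear non-coding RNAs, 2.3% of counts. Mdr2-/- tumour-bearing replicate 6 was the highest for Prss35 (31.1), Akr1cl (23.2), Ctgf (139.5), Timp1 (10.6), Col5a2 (48.5) and Ifi44 (10.8). Mdr2-/- tumour-bearing replicate 4 stood highest for Sdcbp2 (13.7), Ang5 (37.6) and Cidea (1.49), replicate 3 for Gpc3 (32.1), Igf2 (202) and Bub1 (7.02), and replicate 1 for Abcb4 (59.3). Among wild-type tumour-bearing livers, replicate 2 was highest for Ang5 (71.5) and replicate 3 for Timp1 (10.9).

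Among controls, wild-type replicate 1 was highest for Spink1 (0.794) and Cdh16 (0.855), and replicate 5 for Yap1 (78.4). Wild-type control replicate 4 was highest for Scd1 (9450), Tagln (1.62) and Jag1 (14.3) and lowest for Tead4 (0.213), and replicate 6 was highest for Wwtr1 (59.1) and lowest for Nt5e (75.8). Mdr2-/- control replicate 2 was highest for Cyp2b10 (76.2) and replicate 5 for Cyp4a14 (68.7).

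By edgeR's test of the difference, the tumour effect differed between genotypes for 21 of the 72 genes named (all genes tested, 25.3%). On the log2 scale, Mdr2-/- minus wild type, it was lower in Mdr2-/- for Sdcbp2 (-2.77), Ang5 (-4.62), Fam83a (-2.55), Ptgfr (-1.63), Wfdc2 (-1.65), Timp1 (-2.47), Nrg1 (-3.48), Cidec (-1.92), Plin4 (-1.20), Ccnd1 (-1.42), Hp (-2.26), Gstm1 (-2.72) and Ly6e (-2.28). It was higher for Cdh16 (4.31), Erbb4 (1.77), Scd2 (1.68), Nt5e (1.23), Cyp7b1 (2.35), Cyp4a14 (1.95), Mup9 (5.44) and Cyp3a44 (6.46). The last 2, with Hp, Gstm1 and Ly6e, were named for their opposite effects.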

How the results depend on the processing

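The number of genes called higher was within 1.5 times that reported with DESeq2 size factors, upper-quartile factors, either filter, DESeq2, voom, group means, no robust estimation, the nuclear RNA covariate and the removal of mitochondrial and haemoglobin genes. It was 6498 higher and 557 lower with total library size, 5058 and 554 on log2(TPM + 1), and 5154 and 546 on log2(TPM + 0.1). Upper-quartile factors gave 67.4% of calls higher. Against 1.5-fold, 780 genes were higher and 89 lower. Common rises and falls numbered 1002 and 13 with total library size, 199 and 7 on log2(TPM + 1), 587 and 8 on log2(TPM + 0.1), and 999 and 80 with no filter. The stricter filter left 313 common rises. Without the 2 libraries that stood apart there were 61 common falls, and with the nuclear RNA covariate 2817 genes were called for the difference, 2285 of them also without it.

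Leaving out each library in turn gave 2523 to 3384 genes higher (fewest without Mdr2-/- tumour replicate 6), 1799 to 3080 lower (fewest without wild-type tumour replicate 3, most without wild-type tumour replicate 6), 519 to 706 common rises, 27 to 54 common falls and 3457 to 5437 for the difference. Under all 38 alternatives that give the common set, 104 rises and 2 falls (Ces2a and Cyp2c29) remained in it, and 424 and 13 in every fit without 1 library. Of 112 called named genes, 96 were called with total library size, 95 on TPM with either pseudocount, 82 with the covariate, 63 against 1.5-fold and 111 without the 2 libraries. With the covariate, the Yap1 tumour term was 0.00764 (edgeR adjusted p = 0.950) and the Erbb3 tumour term 0.0647 (adjusted p = 0.715), of reversed sign; the cause was not tested. No paired analysis was possible because replicate numbers follow the order of the samples and pair none. Genes under 1 CPM rest on few counts, and their fold changes are least certain.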

Other observations

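Cell cycle and replication genes were called higher in 12 of 26 cases (46.2%, against 16.6% of all genes tested) and lower in 1 (3.85%, against 12.1%). Yet 0 were in the common set, and the difference between genotypes was called for 17, against 25.3% of all genes tested. In wild type 23 of the 26 were called higher (all genes tested, 16.9%) and 0 lower (11.5%). In Mdr2-/- mice 1 was higher (all genes tested, 17.9%) and 8 were lower (17.0%). Bub1, a mitotic checkpoint kinase, was at 0.129 to 0.767 CPM (median 0.403) in wild-type controls and 0.736 to 3.87 CPM (median 1.31) in wild-type tumour-bearing livers. Bub1 in Mdr2-/- mice was at 0.901 to 2.90 CPM (median 2.16) in Mdr2-/- controls and 2.73 to 7.02 CPM (median 3.67) in Mdr2-/- tumour-bearing livers (tumour term 1.42 ± 0.31, edgeR adjusted p = 0.00106). Ccnd1, cyclin D1, was at 80.9 to 155 CPM (median 97.0) in wild-type controls and 84.6 to 159 CPM (median 113) in wild-type tumour-bearing livers. Ccnd1 in Mdr2-/- mice was at 182 to 444 CPM (median 313) in Mdr2-/- controls and 94.5 to 175 CPM (median 124) in Mdr2-/- tumour-bearing livers. Its effect was 0.13 in wild type and -1.30 in Mdr2-/- (difference, adjusted p = 0.00157). The summed level of the list was 203.7 to 249.3 CPM in wild-type controls, 269.2 to 487.3 CPM in wild-type tumour-bearing livers, 506.6 to 830.8 CPM in Mdr2-/- controls and 358.6 to 601.6 CPM in Mdr2-/- tumour-bearing livers.

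Jag1, a Notch ligand of the developing bile duct, was a common rise at 10.4 to 14.3 CPM (median 11.2) in wild-type controls and 13.8 to 36.8 CPM (median 22.5) in wild-type tumour-bearing livers, and at 9.42 to 22.9 CPM (median 16.3) in Mdr2-/- controls and 27.4 to 42.9 CPM (median 33.8) in Mdr2-/- tumour-bearing livers (tumour term 1.07 ± 0.16, edgeR adjusted p = 1.62e-05). Of 15 immediate early and heat shock genes 3 were called lower (20%, against 12.1% of all genes tested) and 0 higher. The count lower was 8 with voom, 7 without the 2 libraries that stood apart and 1 on TPM with a pseudocount of 0.1. Egr1, an immediate early factor, was at 3.05 to 46.1 CPM (median 8.68) in wild-type controls and 4.36 to 16.5 CPM (median 6.79) in wild-type tumour-bearing livers, and at 28.7 to 64.9 CPM (median 36.8) in Mdr2-/- controls and 7.36 to 17.9 CPM (median 12.7) in Mdr2-/- tumour-bearing livers. Its tumour term was -1.34 ± 0.34 (adjusted p = 0.00429), which was not called on TPM with a pseudocount of 0.1, with the nuclear RNA share as a covariate or against 1.5-fold.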
